A study of Mus musculus with 6 samples.

Results

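The genes described here are 7 dual-specificity phosphatase genes (Dusp1, Dusp2, Dusp4, Dusp5, Dusp6, Dusp10 and Dusp16) and 3 genes of the Sprouty family (Spry1, Spry2 and Spred1), chosen by symbol as feedback inhibitors of mitogen-activated protein kinase (MAPK) signalling. All 10 were found among the 24421 rows of the count table, and all 10 passed the filter on low counts that left 11805 genes for testing. The RNA came from group 2 innate lymphoid cells (ILC2), tissue lymphocytes without antigen receptors that make type 2 cytokines. The cells were sorted from the brains of C57BL/6 mice by surface markers and kept for 2 weeks in medium with fetal calf serum, stem cell factor (SCF), IL-33, IL-2 and IL-7. Old cultures were started from animals aged 20 to 22 months and young cultures from animals aged 2 to 3 months, with 3 libraries each, and both groups shared strain and culture conditions. Nothing in the labels ties the libraries to separate animals or separate cultures, so p-values measure only the spread between these libraries, which may be technical. Cells cultured for weeks in growth cytokines are a model of expanded ILC2, not of ILC2 taken directly from brain.

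A MAPK becomes active when a threonine and a tyrosine in its activation loop are both phosphorylated, and dual-specificity phosphatases remove both phosphates. Many of these phosphatase genes are transcribed when the kinase they switch off is active, which makes them a negative feedback loop as well as a commonly used readout of recent signalling. Sprouty and Spred proteins act further up, at the membrane, where they restrain the steps from receptor tyrosine kinases through RAS to RAF. Of the culture cytokines, IL-2 and SCF are known to activate the RAS and ERK pathway, and IL-33 is known for strong p38 signalling in ILC2.

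The libraries held 16477157 to 20804291 counts. With TMM scaling (edgeR's trimmed mean of M-values), 1325 genes were higher and 961 lower in old cultures at an edgeR quasi-likelihood adjusted p under 0.05, and scaling by library totals alone gave 718 higher and 2380 lower. The median log2 change of all genes tested was -0.10 with TMM and -0.52 with library totals, and directions below are relative to the TMM scaling. ILC2 markers summed to 11200 to 13300 counts per 1000000 (CPM) of library totals in old cultures and 15000 to 17300 CPM in young cultures. Each of the 13 markers had a count, but not in every library, and they moved in both directions. Klrg1 had 0, 7 and 61 counts in old libraries 1 to 3, against 1467, 2026 and 1979 counts in young libraries 1 to 3. It fell (edgeR adjusted p = 0.000931), as did Gata3, Icos, Il1rl1, Il2ra and Il5. Id2 and Thy1 rose, and Rora, Il7r, Il13, Areg and Ptprc were not called. The NK cell and ILC1 markers Eomes, Tbx21, Ncr1 and Klrb1c, the B cell markers Ms4a1, Cd79a and Pax5, and the T cell markers Cd3e, Cd4 and Cd8a were at 0 in all 6 libraries. The B cell marker Cd79b had counts in every library and rose, at 44.5 ± 12.7 TMM-scaled CPM in old and 19.0 ± 4.74 CPM in young cultures (SD, n = 3 each; log2 change 1.23, edgeR adjusted p = 0.0212). Of 6 T cell markers 3 had a count (Cd3g, Cd3d and Cd8b1), and they summed to 5.89 to 13 CPM of library totals in old cultures and 7.89 to 15.3 CPM in young cultures. Of 6 microglial and macrophage markers 5 had a count, and they summed to 51.2 to 80.5 CPM of library totals in old cultures and 3.37 to 18.0 CPM in young cultures, with Csf1r at 0. On the TMM scale, Tmem119 rose, at 51.1 CPM in old and 0.673 CPM in young cultures (edgeR adjusted p = 0.00141), as did P2ry12 and Lyz2 (edgeR adjusted p = 0.0385 and 0.00084). Adgre1 fell, at 0 in the old libraries against 2.60 CPM in young cultures (edgeR adjusted p = 0.0151), and Cx3cr1 averaged 0.466 CPM in old and 3.76 CPM in young cultures (edgeR adjusted p = 0.273). The part of these markers in the results below was not tested.

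Of the 10 genes, 2 rose in old cultures and 0 fell. The genes that rose were Dusp2 and Dusp1, which encode inducible nuclear phosphatases. Those 2 genes are 20.0% of the 10, beside 19.4% of all genes tested called in either direction and 11.2% called higher, so the share of the family that changed was near that of the transcriptome. The count of 0 lower genes in edgeR stood beside 1 at an unadjusted p under 0.05 (Spry1), 0 in DESeq2 and 1 in limma-voom, and 4 genes were higher at an unadjusted p under 0.05. The groups of libraries did not overlap for 7 of the 10 genes, 5 higher (Dusp1, Dusp2, Dusp5, Dusp6 and Dusp10) and 2 lower (Spry1 and Dusp4), against 38.2% of all genes tested (19.3% higher and 18.8% lower). With CPM of library totals, a reading chosen after seeing the data, 2 genes were higher without overlap (Dusp1 and Dusp2) and 3 were lower (Dusp4, Dusp16 and Spry1), against 46.0% of all genes (11.0% higher and 35.0% lower). The median log2 change of the 10 genes was 0.03, with a range of -3.66 to 1.66.

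**Figure D1:**
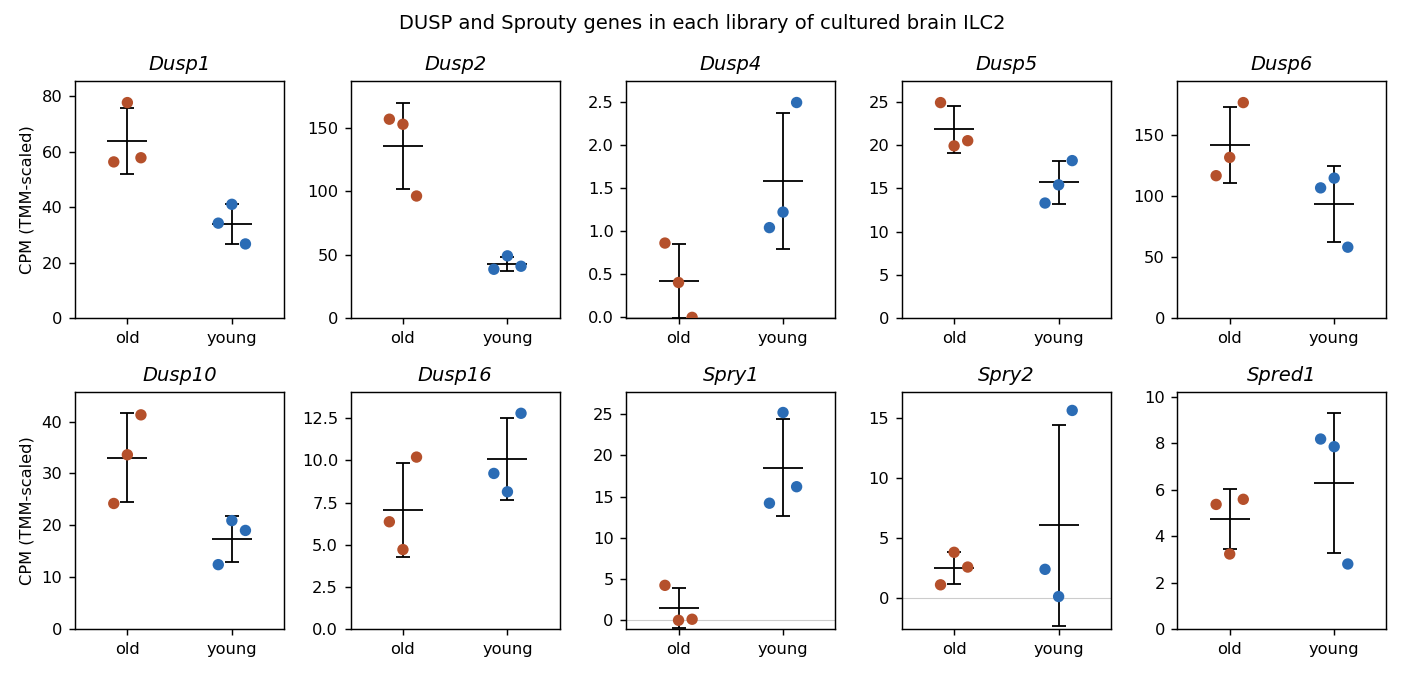
CPM scaled by TMM in each library (points, old cultures left and young cultures right) for the 10 genes, with the mean and SD of 3 libraries as a bar with whiskers; whiskers of Spry1 and Spry2 run below 0 because the SD exceeds the mean. Dusp2 sits between 96.4 and 157 CPM in old cultures, above the 38.6 to 49.2 CPM of young cultures, while the Spry2 points overlap.

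Dusp2 encodes a nuclear phosphatase first described in activated lymphocytes. It had 157, 153 and 96.4 CPM in old libraries 1 to 3, against 38.6, 49.2 and 41.0 CPM in young libraries 1 to 3. All 3 old libraries lay above all 3 young libraries, with the lowest old value in old library 3. The means were 136 ± 34.1 CPM in old and 42.9 ± 5.57 CPM in young cultures (SD, n = 3 each), and Dusp2 rose by 1.66 ± 0.23 on the log2 scale (SE), a fold of 3.16 (edgeR adjusted p = 0.000613). It was called under each of the 16 alternatives, with log2 changes of 1.06 to 1.85. The gene lies at chr2:127336159-127338376 on the plus strand (GRCm38, GENCODE vM21), and no other annotated gene shares its exons. Its transcript of 1617 bases falls in the shortest of 5 equal groups of tested genes by transcript length, in which 30.9% of genes were called higher in old cultures, and correcting for length and GC content gave the 1.06. From the shortest to the longest group, the median log2 change of all genes was 0.502, 0.0303, -0.198, -0.364 and -0.494.

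Dusp1 encodes a nuclear phosphatase with a preference for p38 and JNK, induced by stress, growth factors and glucocorticoids. It had 56.4, 77.8 and 57.9 CPM in old libraries 1 to 3, against 34.3, 41.1 and 26.8 CPM in young libraries 1 to 3. The groups did not overlap, and Dusp1 rose by 0.91 ± 0.25 on the log2 scale (SE), a fold of 1.88 (edgeR adjusted p = 0.0269). Its means were 64.0 ± 11.9 CPM in old and 34.1 ± 7.15 CPM in young cultures (SD, n = 3 each). The call was lost with library totals (log2 change 0.48, adjusted p = 0.191), with the length and GC correction (0.65, adjusted p = 0.0722), and in edgeR without old library 2 (adjusted p = 0.116), young library 1 (0.0848) or young library 3 (0.0605). The adjusted p was 0.00369 to 0.191 under the 16 alternatives. The gene is on chromosome 17, minus strand, and 0.332% of its exon bases overlap Ergic1 on the opposite strand.

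The sequences before the start sites of the genes that rose are shown together with that of Dusp5, which held a different set of motifs. They come from RefSeq (GRCm38.p6), are written 5′ to 3′ on the gene's strand, begin 250 bases before the RefSeq start and stop before the first base that GENCODE annotates as an exon of the gene. In Dusp1 and Dusp2 capitals mark the cyclic AMP response element TGACGTCA and the E-box CACGTG, and in Dusp5 the CArG box, the binding motif of serum response factor.
Dusp1 (chr17:26508520-26508722, minus strand): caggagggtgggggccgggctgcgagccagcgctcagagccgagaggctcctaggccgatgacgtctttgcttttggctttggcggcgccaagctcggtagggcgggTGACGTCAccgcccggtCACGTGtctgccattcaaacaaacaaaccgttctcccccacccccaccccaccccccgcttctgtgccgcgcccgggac
Dusp2 (chr2:127335909-127336158, plus strand): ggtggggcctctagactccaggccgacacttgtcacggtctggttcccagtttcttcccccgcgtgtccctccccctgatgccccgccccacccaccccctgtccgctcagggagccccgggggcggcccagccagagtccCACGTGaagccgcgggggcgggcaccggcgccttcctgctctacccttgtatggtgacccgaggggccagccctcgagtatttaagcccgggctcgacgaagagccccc
Dusp5 (chr19:53528895-53529108, plus strand): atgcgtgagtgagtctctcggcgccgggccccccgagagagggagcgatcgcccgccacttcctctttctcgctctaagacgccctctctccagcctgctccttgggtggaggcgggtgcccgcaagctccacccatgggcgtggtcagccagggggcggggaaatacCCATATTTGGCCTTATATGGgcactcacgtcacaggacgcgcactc

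Windows of 250 bases were found for 9 of the 10 genes and searched on both strands for 8 motifs chosen after the values were known. The E-box occurred in 2 of the 9, Dusp1 and Dusp2, against 6.02% of 32851 promoter windows of the same length. The cyclic AMP response element occurred in Dusp1 alone, against 1.55% of windows. Dusp5 had 2 CArG boxes that start 82 and 72 bases before the start site, and CArG boxes occurred in 1.47% of windows. The GC box GGGCGG occurred in 7 of the 9 windows, against 32.7% of windows. No window matched the letters of AP-1 (TGANTCA), STAT (TTCNNNGAA), ETS (CCGGAAG) or the TATA box (TATAAA). These matches describe letters, not binding. The window of Dusp2 overlaps no annotated gene, that of Dusp5 lies within an exon of AC137853.2 on the opposite strand, and that of Dusp1 lies within the span of a longer Dusp1 transcript.

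Dusp5 and Dusp6 encode phosphatases selective for ERK, Dusp5 in the nucleus and Dusp6 in the cytoplasm. Dusp6 had 117, 132 and 177 CPM in old libraries 1 to 3, against 107, 115 and 58.3 CPM in young libraries 1 to 3. The gap between the groups was small, since old library 1 and young library 2 were nearly level, and the lowest value was that of young library 3. The log2 change of 0.60 ± 0.26 (SE) did not pass the test (edgeR adjusted p = 0.146) and ran from 0.17 to 0.79 over the alternatives. Dusp5 had 24.9, 19.9 and 20.5 CPM in old libraries 1 to 3, against 13.3, 15.4 and 18.2 CPM in young libraries 1 to 3. Its log2 change of 0.47 ± 0.34 (SE) did not pass either (edgeR adjusted p = 0.394), and it was 0.06 with library totals. A predicted gene on the opposite strand covers 22.1% of the exon bases of Dusp5, so its counts are uncertain where strand was not used.

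Dusp10 and Dusp16 encode phosphatases that act on JNK and p38. Dusp10 had 24.2, 33.6 and 41.3 CPM in old libraries 1 to 3, against 12.4, 20.9 and 19.0 CPM in young libraries 1 to 3. The groups did not overlap, but the spread within each left a log2 change of 0.92 ± 0.34 (SE) short of the threshold (edgeR adjusted p = 0.0840), although its estimate was close to that of Dusp1. It passed in DESeq2 (adjusted p = 0.0431) and with length and GC content corrected for (log2 change 1.09, adjusted p = 0.0397), within a range of 0.0397 to 0.312. Dusp16 had 6.36, 4.71 and 10.2 CPM in old libraries 1 to 3, against 9.23, 8.14 and 12.8 CPM in young libraries 1 to 3. The groups overlapped, and its log2 change was -0.51 ± 0.54 (SE; edgeR adjusted p = 0.590).

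Dusp4, which encodes another inducible nuclear phosphatase, was barely detected. It had 13, 6 and 0 counts in old libraries 1 to 3, against 20, 30 and 49 counts in young libraries 1 to 3. The groups did not overlap after scaling, at 0.861 CPM or less in old and 1.04 CPM or more in young cultures, but the 95% exact Poisson intervals of old library 1 (0.458 to 1.47 CPM) and young library 1 (0.637 to 1.61 CPM) did overlap. These intervals cover counting error only. Its log2 change of -1.89 ± 1.5 (SE) did not pass the test (edgeR adjusted p = 0.443), and no difference was detectable at this depth.

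Spry1 encodes a Sprouty inhibitor of receptor tyrosine kinase signalling to RAS, and it had the most negative log2 change of the 10 genes. It had 64, 0 and 2 counts in old libraries 1 to 3, against 272, 619 and 318 counts in young libraries 1 to 3. Scaled, these were 4.24, 0 and 0.127 CPM in old libraries, against 14.2, 25.2 and 16.2 CPM in young libraries. Every young library lay above every old library, and old library 1 held nearly all of the Spry1 counts of its group. The means were 1.46 ± 2.41 CPM in old and 18.5 ± 5.87 CPM in young cultures (SD, n = 3 each). The log2 change was -3.66 ± 1.24 (SE), and the edgeR adjusted p of 0.0610 missed the threshold. Without old library 1 the log2 change was -8.02 (adjusted p = 0.000757), and the 16 alternatives gave adjusted p-values of 0.000757 to 0.174. The gene lies at chr3:37639947-37644598 on the plus strand (GRCm38, GENCODE vM21), and Gm42922 on the opposite strand covers 24.4% of its exon bases. In bulk RNA, fewer cells that express a gene and less RNA per cell cannot be told apart.

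Spry2, a close relative of Spry1, varied most within the young group. It had 16, 56 and 40 counts in old libraries 1 to 3, against 45, 2 and 307 counts in young libraries 1 to 3, or 1.06, 3.77 and 2.54 CPM against 2.35, 0.0814 and 15.6 CPM. The young values lay on both sides of all old values. The log2 change was -1.29 ± 1.31 (SE; edgeR adjusted p = 0.565), and it was 1.04 without young library 3 and 0.79 in limma-voom, so no direction could be given. Spred1, which encodes a Sprouty-related inhibitor of RAF activation, had 5.37, 3.23 and 5.59 CPM in old libraries 1 to 3, against 8.19, 7.86 and 2.80 CPM in young libraries 1 to 3. Its groups overlapped as well, with a log2 change of -0.41 ± 0.71 (SE; edgeR adjusted p = 0.756).

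**Figure D2:**
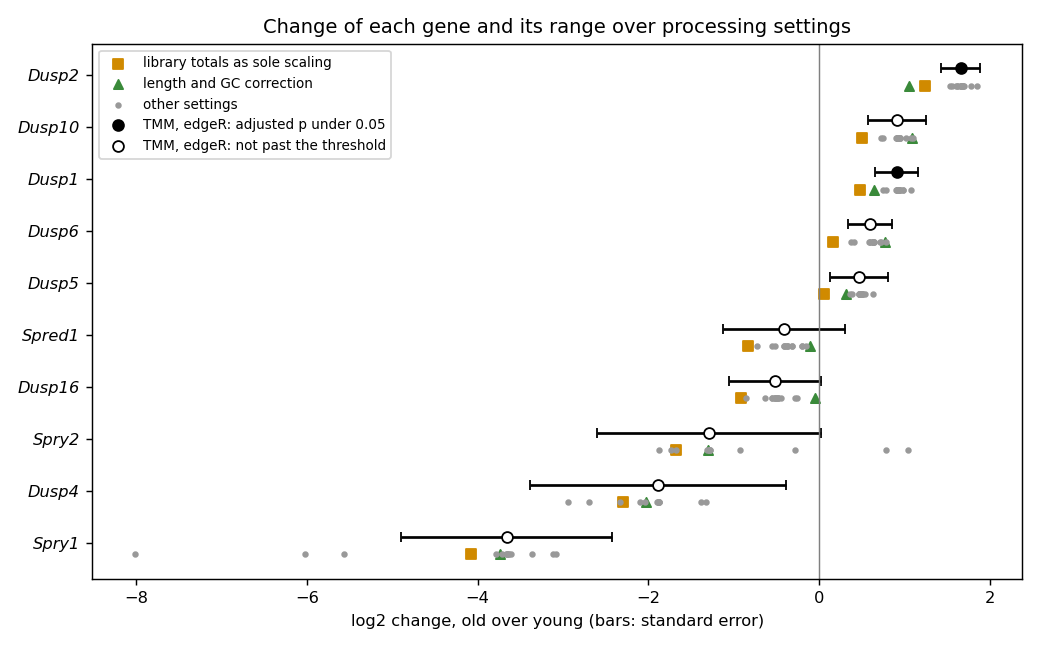
Log2 change of each gene, old over young cultures, with its standard error (black circles, filled where the edgeR adjusted p was under 0.05) and its values under the 16 alternatives (small symbols). Dusp2 stays between 1.06 and 1.85, Spry2 crosses 0, and Spry1 spreads from -8.02 to -3.08.

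Levels of different genes were compared per kb of the longest coding transcript. In old cultures Dusp2 was first with 83.9 ± 21.1 CPM per kb, followed by Dusp6 with 50.7 ± 11.1 and Dusp1 with 32.2 ± 5.99 CPM per kb (SD, n = 3). In young cultures Dusp6 was first with 33.5 ± 11.1 CPM per kb, followed by Dusp2 with 26.5 ± 3.45 and Dusp1 with 17.1 ± 3.59 CPM per kb (SD, n = 3). The ranges of Dusp2 and Dusp6 overlapped in both groups, so their order within a group was not separated by the spread, whereas Dusp1 lay below both in each group. Dusp10 and Dusp5 came next in old cultures, at 11.8 ± 3.08 and 8.80 ± 1.11 CPM per kb. In young cultures Spry1, Dusp5 and Dusp10 held the next places at 6.68 ± 2.12, 6.33 ± 1.0 and 6.24 ± 1.59 CPM per kb, with overlapping ranges. The last places went to Dusp16, Spry2, Spred1, Spry1 and Dusp4 in old cultures, each with a mean of 1.39 CPM per kb or less, and to Spry2, Dusp16, Spred1 and Dusp4 in young cultures, each with a mean of 2.88 CPM per kb or less.

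Summed over the 7 phosphatase genes, the level was 187, 202 and 177 CPM per kb in old libraries 1 to 3, against 91.6, 108 and 77.3 CPM per kb in young libraries 1 to 3. The sum over the 3 Sprouty and Spred genes was 2.93, 2.34 and 2.19 CPM per kb in old libraries, against 7.60, 10.4 and 13.8 CPM per kb in young libraries. The phosphatase sum was higher and the Sprouty sum lower in every old library. These sums follow from the single genes, chiefly Dusp2 and Spry1, and were not tested. In young library 3, which had the largest Sprouty sum, Spry2 was at 7.48 and Spry1 at 5.83 CPM per kb. Dusp2 made up 43.5 ± 9.20% of the summed level in old and 25.9 ± 1.89% in young cultures, and Spry1 0.276 ± 0.456% in old and 6.41 ± 1.25% in young cultures (SD, n = 3 each).

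**Figure D3:**
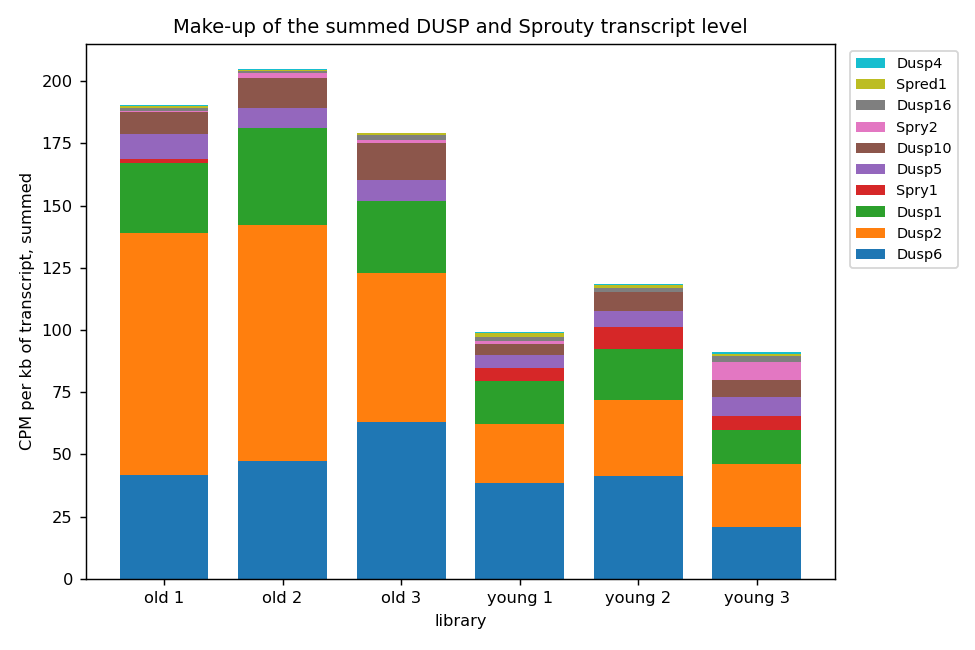
Level of the 10 genes in each library in CPM per kb of transcript, stacked, with old libraries left and young libraries right. The summed level is 179 to 205 CPM per kb in old libraries and 91.0 to 119 CPM per kb in young libraries, and the segment of Dusp2 accounts for most of the gap.

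Ratios of counts between genes within a library do not depend on how libraries are scaled. They were not corrected for transcript length or GC content, and paired genes can differ in length, as do Dusp10 (2792 bases) and Dusp16 (5104 bases). The pairs were picked with earlier results of these data known, and the share of other gene pairs without overlap was not computed. The ratio of Dusp2 to Dusp1 was 2.78, 1.97 and 1.66 in old libraries 1 to 3, against 1.12, 1.20 and 1.53 in young libraries 1 to 3, and the groups did not overlap. Its mean log2 value was 1.06 in old and 0.35 in young cultures. The ratio of Dusp10 to Dusp16 was 3.80, 7.13 and 4.07 in old libraries 1 to 3, against 1.34, 2.56 and 1.48 in young libraries 1 to 3, again without overlap. Its mean log2 value was 2.26 in old and 0.79 in young cultures. For both ratios the two-sided exact permutation p was 0.1, the smallest that 20 arrangements allow, and 0.2 after Benjamini-Hochberg adjustment over the 4 ratios computed. The other ratios overlapped between the groups. Dusp2 to Dusp6 was 1.35, 1.16 and 0.546 in old libraries, against 0.359, 0.426 and 0.703 in young libraries (exact permutation p = 0.2, adjusted 0.267). Dusp5 to Dusp6 had a mean log2 value of -2.69 in old and -2.53 in young cultures (exact permutation p = 0.8).

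**Figure D4:**
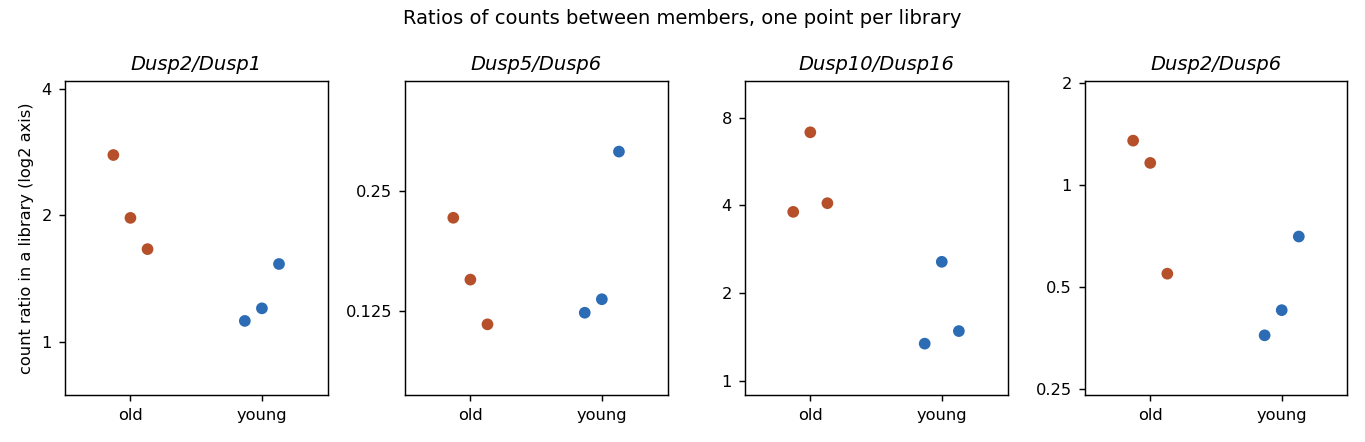
Ratio of the counts of a gene pair in each library on a log2 axis, old cultures left and young cultures right. Dusp2 to Dusp1 and Dusp10 to Dusp16 are higher in all 3 old libraries, while Dusp5 to Dusp6 and Dusp2 to Dusp6 overlap.

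The wider pathway was read from lists that were fixed by role. Over all genes tested the median log2 change fell as transcripts became longer, and the list medians below were not corrected for this trend. Among 15 tested genes of 17 other dual-specificity and related phosphatases 3 rose and 1 fell, beside 11.2% higher and 8.14% lower of all genes tested, with a median log2 change of 0.05. Dusp7, a cytoplasmic ERK phosphatase related to Dusp6, had 65.2, 65.8 and 89.2 CPM in old libraries 1 to 3, against 27.7, 34.1 and 29.5 CPM in young libraries 1 to 3. It rose by 1.27 ± 0.23 on the log2 scale (SE; edgeR adjusted p = 0.00326) and was called under all 16 alternatives. The atypical phosphatase genes Dusp19 and Dusp14 rose by 1.37 and 0.74, with edgeR adjusted p-values of 0.00888 and 0.0128. Neither passed after the length and GC correction (adjusted p = 0.0589 and 0.104). The call of Dusp14 was also lost with library totals (log2 change 0.32, adjusted p = 0.193) and without old library 2 (0.0558) or young library 1 (0.0746). Dusp18 had 0 counts in the old libraries, against 28, 50 and 51 counts in young libraries 1 to 3. It was at least 30.9-fold lower in old cultures against a floor of 3 counts over that group (edgeR adjusted p = 0.0188), a call that was lost in edgeR whichever library was left out, with adjusted p-values from 0.0510 to 0.0646. Of the remaining Sprouty genes 3 of 4 were tested and 0 were called by edgeR, DESeq2 or limma-voom, with 0 at an unadjusted p under 0.05. Spry4 had 0, 1.28 and 8.64 CPM in old libraries 1 to 3, against 0.939, 0.488 and 3.20 CPM in young libraries, and Spred2 had a log2 change of -0.61 ± 0.80 (SE).

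Upstream of the phosphatases, 1 of 18 genes from RAS to ERK rose and 0 fell by edgeR (1 lower at an unadjusted p under 0.05, 0 by DESeq2 and 0 by limma-voom), beside 11.2% higher and 8.14% lower of all genes tested, with a median log2 change of -0.07. The count depended on the tool and the scaling: DESeq2 called 3 higher, limma-voom 2 higher, and edgeR with library totals 0 higher and 4 lower. The gene that rose was Hras, at 221 ± 43.6 CPM in old and 146 ± 23.1 CPM in young cultures (SD, n = 3 each; edgeR adjusted p = 0.0467). That call was lost under 7 of the 16 alternatives, among them library totals (adjusted p = 0.487) and the removal of old library 1 or 2 or young library 1 or 2 (0.118 to 0.172). Among 10 RAS GTPase activators and other RAS inhibitors 1 rose and 1 fell (11.2% and 8.14% of all genes), with a median of -0.59. Rasal3, a RAS GTPase activator of blood cells, fell by 1.08, with 67.0 ± 10.3 CPM in old and 142 ± 43.5 CPM in young cultures (SD, n = 3 each; edgeR adjusted p = 0.0106, and 0.0589 without young library 1). Pebp1, a RAF inhibitor, rose by 0.59 (edgeR adjusted p = 0.0205), but its log2 change was -0.10 after the length and GC correction. Its call was also lost with library totals (adjusted p = 0.395) and without old library 1 or 2 or young library 1 or 2 (0.0626 to 0.103).

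In the p38 and JNK arms, 3 of 16 tested genes fell and 0 rose by edgeR (1 higher at an unadjusted p under 0.05, 1 by DESeq2 and 0 by limma-voom), beside 8.14% lower and 11.2% higher of all genes tested, with a median log2 change of -0.34. With library totals 6 were called lower. With the length and GC correction edgeR called 1 higher and 2 lower. It also called 1 higher with no count filter and 2 higher without old library 3. Map3k7, the kinase that relays IL-33 receptor signals to p38, JNK and NF-kB, had 4.17, 7.27 and 5.02 CPM in old libraries 1 to 3, against 28.7, 24.1 and 32.9 CPM in young libraries 1 to 3. It fell by 2.38 ± 0.40 on the log2 scale (SE; edgeR adjusted p = 0.00185). Map2k3, a kinase that activates p38, fell by 1.34 ± 0.22 (SE; edgeR adjusted p = 0.00166). Both were called under all 16 alternatives. Map2k4, which activates JNK and p38, fell by 1.16 (edgeR adjusted p = 0.0375), a call lost after the length and GC correction (0.1) and without old library 1 or 2 or any of the young libraries (0.0530 to 0.127).

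Among 11 tested transcripts known to be induced by ERK, 4 rose and 1 fell, beside 11.2% higher and 8.14% lower of all genes tested, with a median log2 change of 0.96. Fos, Ier2 and Ier3, which are early response genes, rose by 2.21, 1.18 and 1.1 on the log2 scale, with edgeR adjusted p-values of 0.000145, 0.000404 and 0.000329. Phlda1 fell by 0.92 (edgeR adjusted p = 0.00443). Ier2 was no longer called once length and GC content were corrected for (log2 change 0.55, adjusted p = 0.0739), and the log2 change of Ier3 was then 0.43 (adjusted p = 0.0294). Of the 6 tested receptor genes for the culture cytokines, 2 fell and 0 rose by edgeR, beside 8.14% lower and 11.2% higher of all genes tested. By DESeq2, by limma-voom or at an unadjusted p under 0.05, 0 rose. Limma-voom also called 2 lower, and edgeR with library totals called 3 lower. DESeq2 and edgeR with no count filter, which both took in the receptor gene Kit, called 3 lower as well. With the length and GC correction, however, edgeR called 1 higher and 1 lower. The IL-33 receptor gene Il1rl1 fell by 0.82 (edgeR adjusted p = 0.00397). Il2ra fell by 0.42 (edgeR adjusted p = 0.0251), a call lost after the length and GC correction (adjusted p = 0.633) and without old library 1 or 2 or young library 1 or 2 (0.0767 to 0.155). Kit, the SCF receptor gene, did not pass the count filter, with 0 counts in the old libraries and 9, 47 and 109 counts in young libraries 1 to 3.

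**Figure D5:**
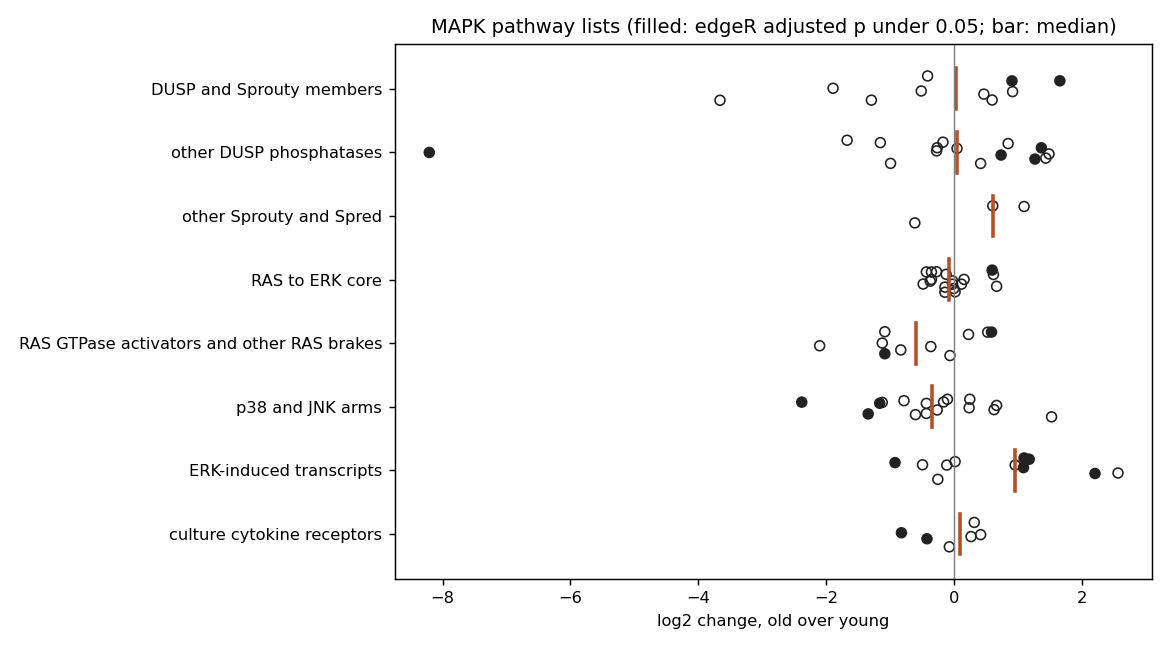
Log2 change of each tested gene, old over young cultures, for the 10 genes and 7 lists of the MAPK pathway, filled where the edgeR adjusted p was under 0.05, with the median of each list as a vertical bar. The point at -8.21 is Dusp18, whose old libraries are at 0, so that its fitted value depends on the prior count; all 3 filled points of the p38 and JNK arms lie below 0.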

How the data were processed

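The 3 old and 3 young libraries of cultured ILC2 were sequenced as single-end reads of 75 bp, per the labels. The deposited table holds raw, unnormalized counts for each symbol in each library. Of the tools in the submitters' processing notes, STAR 2.5.3a, Cufflinks 2.0 and DESeq2 1.1 are named beside the build mm10. How reads were counted, with which annotation and with or without strand, is not given in the sources used here. Counts per symbol do not separate isoforms, nor overlapping genes if strand was ignored.

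Counts were tested in R 4.3.3 with edgeR 4.0.16 (filterByExpr with a minimum count of 10 and a minimum total of 15, TMM, glmQLFit and glmQLFTest, old over young). Adjusted p-values are Benjamini-Hochberg values over the 11805 genes tested, with a threshold of 0.05, and a standard error is the log2 change divided by the root of F. TMM factors were 0.866 ± 0.0232 in old and 1.16 ± 0.0296 in young libraries (SD, n = 3 each). The 27 rows whose symbols had become calendar dates stayed in the tests. Transcript length, GC content and coordinates came from GENCODE vM21 (GRCm38), which matched 95.6% of symbols, and promoter sequences from RefSeq. The fit was first tested on simulated counts with known changes. It recovered 20.4% of 98 changes of 2-fold and 55.7% of 97 changes of 4-fold, and 3.9% of its 77 calls were false. A gene that was not called may therefore still differ between the groups.

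The 10 genes and all lists were chosen with earlier results of these data known. All 10 are named, with up to 4 called genes of each list by adjusted p (the 2 with the smallest p where none passed). Kit was named after its values were seen. The alternatives were other scalings (library totals, RLE, upper quartile), other filters (none, and a minimum count of 50), DESeq2 1.42.0, limma-voom (limma 3.58.1), a robust fit, a length and GC correction, a replicate block and leaving out each library.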

Additional observations from a re-analysis of the deposited data

How the results depend on the processing

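The number of the 10 genes called higher was 2, and it was 1 with library totals as the sole scaling; leaving out each library in turn gave 1 to 2. The number called lower was 0, and it was 1 (Spry1) with library totals, with no filter on low counts, with the stricter filter and in limma-voom, and 0 to 1 with a library left out. The median log2 change of the 10 genes was 0.03. It was -0.38 with library totals, 0.54 with the stricter filter, which left out Dusp4 and Spry2, and 0.55 in limma-voom, and -0.07 to 0.50 with a library left out (-0.03 without old library 1 and -0.07 without old library 3). Of all genes, 718 were called higher and 2380 lower with library totals; with a library left out 915 to 1344 were higher and 399 to 849 lower. Single genes changed sign in 5 cases: Spry2 (0.79 in limma-voom and 1.04 without young library 3, within -1.87 to 1.04 over the libraries left out), Spry4 (-0.58 in limma-voom and -1.26 without old library 3, within -1.26 to 2.23) and Pebp1 (-0.10 after the length and GC correction). The causes were not tested. Dusp2, Dusp7, Fos, Ier3, Phlda1, Il1rl1, Map2k3 and Map3k7 kept their direction and call under all 16 alternatives.

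Replicate numbers are shared by the groups, but same-numbered libraries did not deviate together (r = 0.0196, 0.00883 and 0.0414), and not every library correlated best with its own number. A fit with the replicate block called 1208 genes higher and 800 lower, and 2 of the 10 genes higher and 1 lower (Spry1, adjusted p = 0.0495); Dusp18, Hras and Il2ra were not called in it (adjusted p = 0.0945, 0.0796 and 0.0645). Depth limits Dusp4, Spry1, Spry2 and Spred1, which had under 100 counts in at least 3 of the 6 libraries.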
